A study of Mus musculus with 2 samples.

Results

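Internal-start peaks are DNase I hypersensitive sites that lie at the start of a protein-coding transcript which begins well inside its own gene. A peak was taken as one when its midpoint was within 500 bp of the start of a GENCODE M21 protein-coding transcript, when that start lay over 2 kb inside the gene from the gene's 5′ end, and when the midpoint was over 1 kb from every protein-coding gene start. On the autosomes there were 3050 such peaks among 124227 in replicate 1 (2.46%) and 2097 among 65403 in replicate 2 (3.21%), a mean of 2574 ± 674 (SD, n = 2). The rule uses positions only, so none of the densities, footprints or sequence features given here entered it. It was chosen with earlier results of these data known. The study mapped accessible chromatin in thymus of female B6CASTF1/J mice, whose chromosomes come in equal part from a C57BL/6J and a CAST parent, at 25 days of age. It had 1 group of 2 libraries, each from its own animal according to the labels, although both carry the same donor identifier. No treatment or genotype was contrasted, and the tissue was whole, so fewer open cells of a type and less accessibility per cell cannot be told apart. Values are therefore given for each library and set beside those of other peaks of the same library, with no test, since peaks and starts are not replicates.

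Many genes carry more than 1 promoter. Transcription from an internal promoter can yield a protein that lacks the amino-terminal part encoded upstream, or the same protein from a different first exon and under different control. In developing T cells well-known cases are Lck, whose proximal promoter is used in thymocytes and whose distal promoter is used from thymus to mature T cells, and Runx1, with a distal and a proximal promoter. DNase I cuts open DNA, so it reports whether a promoter is accessible and not whether it is transcribed.

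The 150 bases upstream of 4 internal starts are shown because the internal start and the gene start of these genes are compared further on. Each runs 5′ to 3′ along the gene and ends 1 base before the annotated internal start. The letters are those of the C57BL/6J reference (RefSeq, GRCm38.p6, the same build as mm10), not of the CAST chromosomes that these mice also carry. Capitals mark bases inside the authors' footprints of both libraries, a footprint being a short stretch protected from cutting. None of the 4 stretches overlaps an annotated exon. They are Lck at chr4:129558392-129558541 on the minus strand, Ets1 at chr9:32695872-32696021 on the plus strand, Cd28 at chr1:60746208-60746357 on the plus strand and Ndel1 at chr11:68853136-68853285 on the minus strand.
Lck: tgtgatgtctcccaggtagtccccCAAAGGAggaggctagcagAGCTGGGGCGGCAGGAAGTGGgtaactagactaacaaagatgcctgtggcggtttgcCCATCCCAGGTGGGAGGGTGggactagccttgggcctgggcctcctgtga
Ets1: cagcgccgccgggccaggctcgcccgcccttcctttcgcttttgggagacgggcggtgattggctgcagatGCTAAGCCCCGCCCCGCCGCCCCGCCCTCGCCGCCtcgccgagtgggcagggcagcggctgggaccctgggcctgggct
Cd28: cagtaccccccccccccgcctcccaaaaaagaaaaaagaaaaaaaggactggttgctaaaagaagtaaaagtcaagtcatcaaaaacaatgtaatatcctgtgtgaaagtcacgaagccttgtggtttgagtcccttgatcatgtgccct
Ndel1: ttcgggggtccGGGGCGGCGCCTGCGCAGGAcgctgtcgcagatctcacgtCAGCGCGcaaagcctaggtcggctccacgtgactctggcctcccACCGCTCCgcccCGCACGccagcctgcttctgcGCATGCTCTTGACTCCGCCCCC

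Footprints of both libraries covered 48 of these 150 bases at Lck, 35 at Ets1 and 63 at Ndel1. At Cd28 the replicate 1 footprints covered 8 bases and the replicate 2 footprints 7, with none in common. The Cd28 peak was centred 53 and 33 bp downstream of the start, and those at Lck, Ets1 and Ndel1 upstream. Much of the Cd28 peak thus lay outside the bases shown, and the whole peak held 4 and 3 footprints. GC content was 76.0% at Ets1 and 71.3% at Ndel1, with 17 and 18 CpG dinucleotides, against 43.3% and 2 CpG at Cd28. Lck lay between, at 60.7% with 2 CpG. The word GGGCGG, read on either strand and bound by the SP and KLF families, began 102 bases upstream of the Lck start, wholly inside a footprint of both libraries. At Ets1 it occurred 4 times when counted without overlaps, and the copies 71 and 63 bases upstream were wholly inside footprints. A further copy, overlapping the end of the copy 63 bases upstream, lay inside footprints as well. At Ndel1 it occurred 3 times, and the copies 138 and 8 bases upstream were wholly inside footprints. The E-box word CACCTG was inside a footprint 44 bases upstream of the Lck start. The RUNX word TGTGGTT, 30 bases upstream at Cd28, had 0 bases in the footprints of replicate 1 and 0 in those of replicate 2, and it overlapped a match to the CTCF word CCACNAGG. Matches to a word are descriptions of the sequence, not evidence of binding.

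Libraries differed in how much was called. Peaks numbered 127552 in replicate 1 and 67270 in replicate 2, and footprints 363775 and 203939. Read totals were not used here. Each peak carries the authors' signal density, whose scaling is not stated, so a density is compared only with others of the same library. Of 12 thymocyte marker genes, among them Cd3e, Cd4, Cd8a, Rag1 and Ptcra, 12 had a gene-start peak, one centred within 1 kb of the gene's 5′ end, in both libraries. Of the markers of other cells in the organ, gene-start peaks were found in replicates 1 and 2 at 2 and 2 of 6 thymic epithelial genes, 1 and 0 of 4 B cell genes, 2 and 2 of 5 myeloid and dendritic genes, 1 and 1 of 4 erythroid genes and 3 and 2 of 5 endothelial and stromal genes. Their part in the results was not tested.

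Most annotated internal starts had no peak, but they had one far more often than other annotated points inside genes, taken over 1 kb away from internal starts. There were 12799 distinct internal starts over 1.5 kb from any gene start, in 6565 of 20807 autosomal protein-coding genes. A peak midpoint lay within 500 bp of 3684 of them in replicate 1, a background share of 28.8% (95% Wilson interval 28.0% to 29.6%), and of 2916 in replicate 2, a share of 22.8% (22.1% to 23.5%). The mean was 25.8% ± 4.24 (SD, n = 2). Intervals of this kind cover counting error only. Both libraries had a peak at 2836 starts, replicate 1 alone at 848, replicate 2 alone at 80 and neither at 9035. Among 138283 internal exon 5′ edges the share with a peak within 500 bp was 5.58% in replicate 1 and 2.62% in replicate 2. It was 9.52% and 5.76% at 17565 internal starts of transcripts of these genes that are not annotated as protein-coding, and 6.48% and 3.31% at 39627 transcript 3′ ends. Exon edges and 3′ ends within 1 kb of any annotated transcript start were left out beforehand. So were starts of the other transcripts within 1 kb of an internal protein-coding start. These shares thus exclude the surroundings of internal starts, which bears on the size of the gap. Expressed by length, the 10.2 Mb of DNA within 500 bp of an internal start held 298 peaks per Mb in replicate 1 and 205 in replicate 2. The remaining 517 Mb of the same gene interiors held 52.4 and 24.0 peaks per Mb. The ratios were 5.69 and 8.52, a mean of 7.11 ± 2.01 (SD, n = 2).

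Which internal starts were open went with how completely the transcript is annotated and with the base composition at the start. GENCODE marks transcripts whose 5′ end was not reached, and the 9344 starts without that mark had a peak in 35.9% of cases in replicate 1 (35.0% to 36.9%) and 29.3% in replicate 2 (28.4% to 30.2%). The 3455 marked starts had one in 9.41% (8.48% to 10.4%) and 5.21% (4.52% to 6.00%). Among complete starts, 45.3% and 37.7% of those with the best transcript support level were open, against 29.5% and 23.5% of the rest. CpG-rich sequence, here a 500 bp window with GC over 50% and an observed-to-expected CpG ratio over 0.6, marked the largest step. Of 1984 complete starts in such sequence 87.2% were open in replicate 1 (85.7% to 88.6%) and 79.5% in replicate 2 (77.7% to 81.3%). Of 7360 complete starts outside it 22.1% (21.2% to 23.1%) and 15.7% (14.9% to 16.6%) were open. Even of the 97 incomplete starts in CpG-rich sequence, 60.8% (50.9% to 70.0%) and 53.6% (43.7% to 63.2%) were open. Among complete starts, those whose transcript has a start codon of its own, and so encodes a different amino terminus from the gene-start transcript, were open in 42.0% and 33.9% of 3517 cases. Those that share the start codon were open in 29.8% and 24.2% of 4882 cases. Where the transcript at the gene start has no annotated start codon at all, 52.4% and 44.6% of 809 were open. Distance into the gene made less difference. Starts 2 to 5 kb inside were open in 30.1% and 23.6% of cases, those 20 to 100 kb inside in 28.2% and 23.3%, and those over 100 kb inside in 23.0% and 16.1%.

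**Figure D1:**
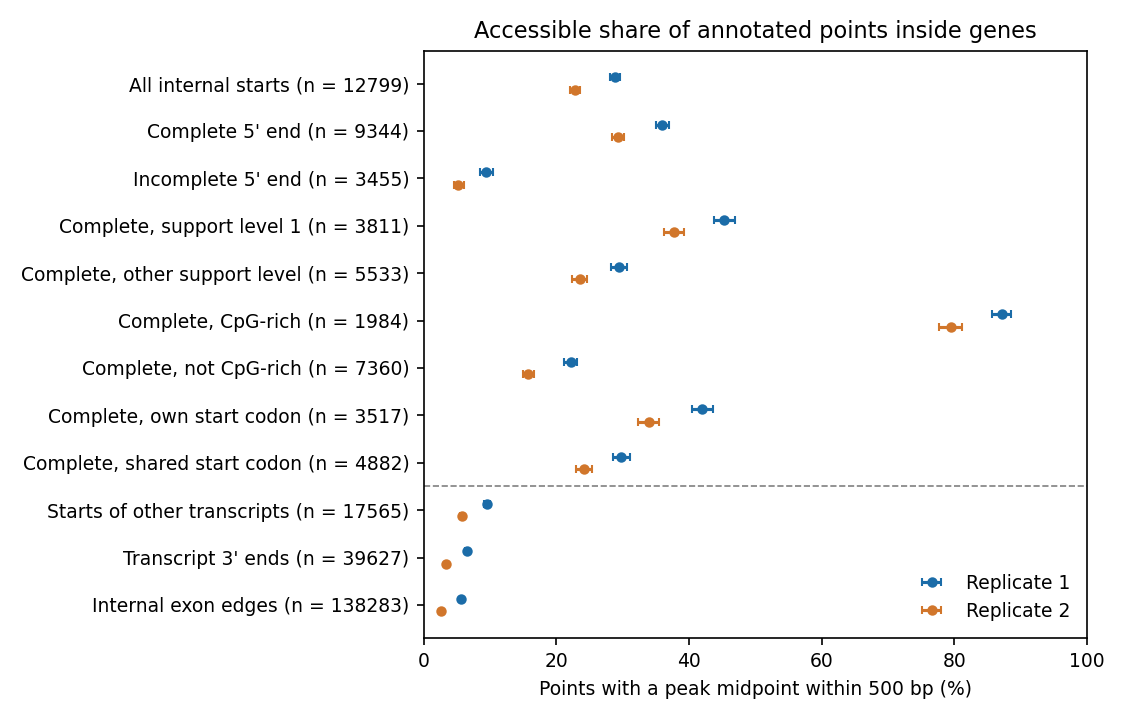
Share of annotated points inside genes with a peak midpoint within 500 bp (x axis, percent), for internal protein-coding starts by annotation above the dashed line and for the 3 other kinds of annotated point, over 1 kb from such starts, under it. Points are the libraries and bars are 95% Wilson intervals; complete CpG-rich starts stand at 87.2% and 79.5%, and internal exon edges at 5.58% and 2.62%.

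The authors' base-by-base file of false discovery rates, made apart from the peak list but from the same reads, gave the same order. At complete CpG-rich internal starts the share of sites with a rate of at most 0.001 was highest 41 bp upstream of the start in replicate 1, at 78.2%, and 66 bp upstream in replicate 2, at 68.0%. At complete starts without CpG-rich sequence the highest shares were 13.1% and 8.72%, and at incomplete starts 3.64% and 1.92%. Gene starts reached 51.8% and 45.7%, and internal exon edges, taken over 2 kb from any annotated transcript start, 1.44% and 0.644%. Such bases made up 1.26% and 0.65% of the autosomal genome in the 2 libraries. CpG-rich internal starts thus had significant cutting more often than gene starts as a whole, a class that includes starts with and without CpG-rich sequence.

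**Figure D2:**
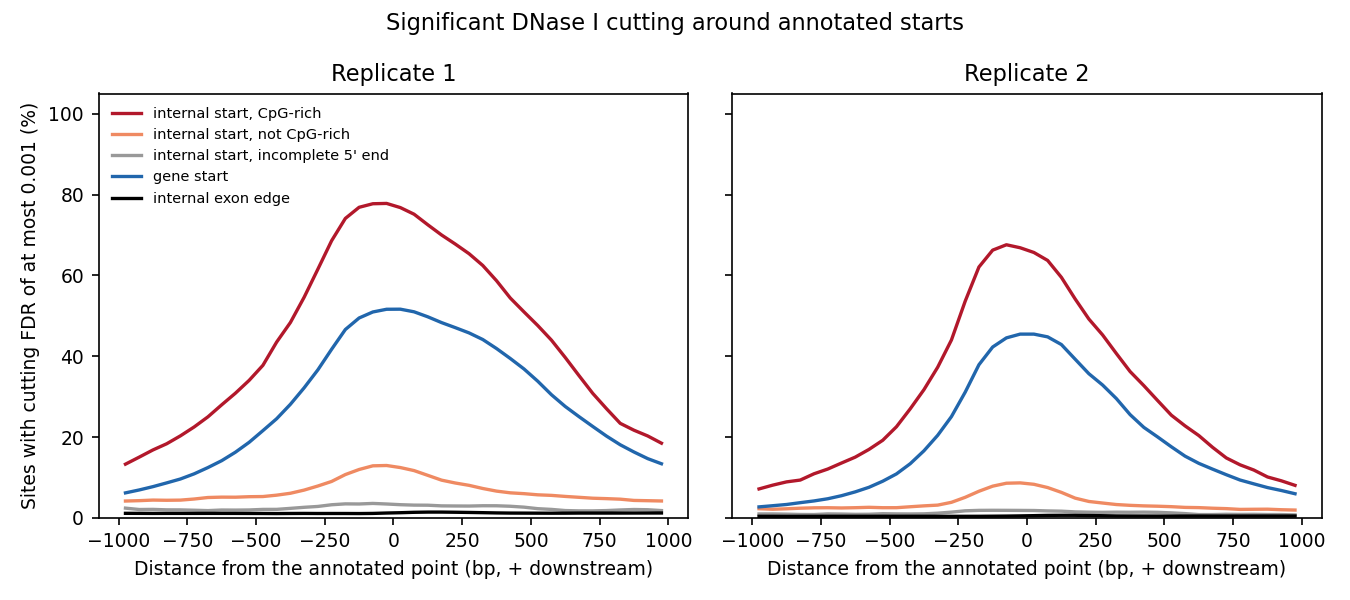
Percent of sites with a cutting false discovery rate of at most 0.001 (y axis) by distance from the annotated point in bp (x axis, positive downstream), 1 panel per library, as averages over 50 bp bins. The line of CpG-rich internal starts lies above that of gene starts throughout, and the line of internal exon edges stays near 0.

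Peaks lay close to the start and mostly just upstream of it, as at gene starts. The median midpoint was 18 bp upstream in replicate 1 and 17 bp upstream in replicate 2, and 56.7% and 57.1% of internal-start peaks were upstream. Gene-start peaks within 500 bp of their start had median midpoints 14 and 12 bp upstream, with 56.4% and 55.6% upstream. Density was highest next to the start. Peaks within 100 bp of it, 1410 and 1111 of them, had median densities of 3.08 and 2.72. The 388 and 210 peaks just inside the 500 bp limit (400 to 500 bp) had medians of 0.984 and 1.04, and the 303 and 167 peaks just outside it (500 to 600 bp) had 0.809 and 0.900. By midpoint 38.7% and 40.7% of internal-start peaks lay in an annotated exon, against 31.0% and 34.9% of gene-start peaks and 12.8% and 14.1% of the other interior peaks, which are those over 2 kb inside a gene and over 1 kb from any gene start. The rule, which places members near a first exon, bears on the exon share.

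Internal-start peaks stood between gene-start peaks and other interior peaks in density. Their median was 1.57 in replicate 1 and 1.65 in replicate 2. Gene-start peaks, 23056 and 17003 in number, had medians of 2.40 and 2.59, and the 49070 and 22438 other interior peaks had 0.725 and 0.792. The ratio of internal-start to other interior medians was 2.17 and 2.08, a mean of 2.13 ± 0.0598 (SD, n = 2). The densest decile of each library held 21.4% and 17.6% of internal-start peaks, against 33.1% and 27.1% of gene-start peaks and 3.50% and 3.07% of other interior peaks. A peak of the other library overlapped 65.2% (63.5% to 66.9%) of replicate 1 internal-start peaks and 93.8% (92.7% to 94.8%) of those of replicate 2. For gene-start peaks these shares were 69.4% and 93.7%, and for other interior peaks 41.0% and 89.9%. The weakest members were shared less often: in the least dense decile of all peaks 8.64% and 46.5% of internal-start peaks had a partner, and in the densest decile 98.6% and 100%. Over 1962 overlapping pairs of internal-start peaks Spearman's rho between the densities was 0.933 and Pearson's r on log10 values 0.930, with a median shift in midpoint of 10 bp. Some replicate 2 peaks entered more than 1 pair, since they overlapped more than 1 replicate 1 peak. The correlations describe pairs of sites in the same 2 libraries, which are not independent samples. Over all members footprints were about as dense as in gene-start peaks, with 12.9 and 13.9 per kb of internal-start peak, 12.7 and 14.1 per kb of gene-start peak and 11.6 and 12.1 per kb of other interior peak. In CpG-rich sequence these values were 14.52 and 15.09, 14.65 and 14.85, and 11.71 and 12.61. Outside it they were 11.41 and 12.46, 9.07 and 11.62, and 11.61 and 12.04, so there internal-start peaks exceeded gene-start peaks and were close to other interior peaks.

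**Figure D3:**
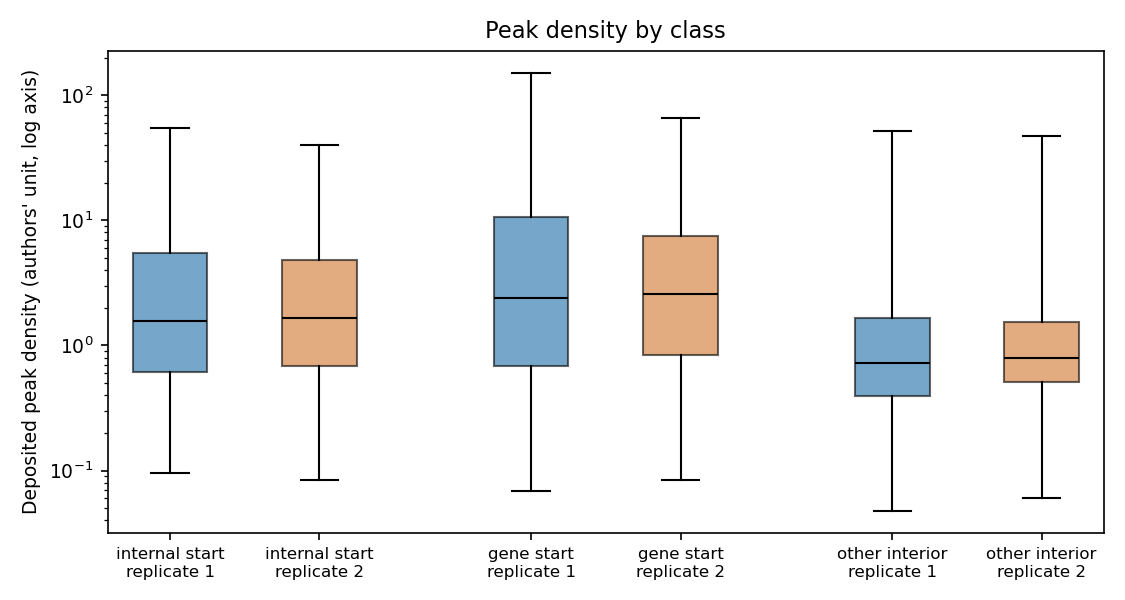
Authors' peak density (y axis, log scale) of internal-start, gene-start and other interior peaks on the autosomes. Boxes span the quartiles with the median as a line and whiskers reach the lowest and highest peak; in both libraries the internal-start median, 1.57 and 1.65, lies between the other medians.

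The members fell into a CpG-rich and a CpG-poor part. CpG-rich sequence was present at 43.5% of internal-start peaks in replicate 1 (41.8% to 45.3%) and at 50.7% in replicate 2 (48.6% to 52.8%), a mean of 47.1% ± 5.08 (SD, n = 2). The shares were 62.0% and 73.1% at gene-start peaks and 2.58% and 3.58% at other interior peaks. CpG-rich internal-start peaks had median densities of 3.77 and 3.02, beside 5.97 and 3.85 for CpG-rich gene-start peaks and 1.11 and 1.13 for CpG-rich other interior peaks. CpG-poor internal-start peaks had medians of 0.984 and 1.05, beside 0.815 and 1.02 for CpG-poor gene-start peaks and 0.719 and 0.786 for CpG-poor other interior peaks.

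Motif content followed this division. In 200 bp windows centred on the peaks and read on both strands, GGGCGG occurred in 40.7% of internal-start peaks in replicate 1 and 46.5% in replicate 2, against 48.4% and 55.4% of gene-start peaks, 8.94% and 10.9% of other interior peaks and 17.8% and 24.6% of all autosomal peaks. Within CpG-rich peaks it was in 65.7% and 69.7% of internal-start peaks, 64.3% and 65.3% of gene-start peaks and 46.1% and 48.8% of other interior peaks. Within CpG-poor peaks it was in 21.4% and 22.7% of internal-start peaks, 22.3% and 28.5% of gene-start peaks and 7.95% and 9.52% of other interior peaks. The ETS word CCGGAAG occurred in 6.85% and 8.63% of internal-start peaks, 10.5% and 13.5% of gene-start peaks, 2.29% and 3.42% of other interior peaks and 4.12% and 6.36% of all peaks. NRF1's word GCGCATGCG was in 1.08% and 1.48% of internal-start peaks, 1.98% and 2.55% of gene-start peaks, 0.177% and 0.223% of other interior peaks and 0.564% and 0.911% of all peaks. Within CpG-rich peaks it was in 2.185% and 2.54% of internal-start peaks and 1.344% and 1.245% of other interior peaks. Within CpG-poor peaks these shares were 0.2322% and 0.3868%, beside 0.1464% and 0.1849%. The intervals of these classes overlapped within each part in both libraries. The cAMP response element TGACGTCA was in 1.64% and 2.00%, against 2.00% and 2.46% of gene-start peaks, 0.342% and 0.441% of other interior peaks and 0.703% and 1.06% of all peaks.

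The RUNX, TCF/LEF and E-box words were less frequent in internal-start peaks than in other interior peaks, the reverse of the ETS word. Among CpG-poor peaks the RUNX word and the E-box CACCTG kept that order in both libraries, and the intervals of the TCF/LEF word and the E-box CAGCTG overlapped between these classes. The RUNX word TGTGGTT was in 3.97% (3.33% to 4.72%) and 3.86% (3.12% to 4.78%) of internal-start peaks, 2.79% and 2.42% of gene-start peaks, 9.26% and 10.6% of other interior peaks and 7.65% and 7.78% of all peaks. Among CpG-poor peaks it was in 5.98% and 6.96% of internal-start peaks, 5.09% and 5.05% of gene-start peaks and 9.46% and 10.9% of other interior peaks. CACCTG, the E-box read by E2A and HEB, was in 19.3% and 20.5% of internal-start peaks, 17.1% and 16.3% of gene-start peaks, 26.7% and 32.7% of other interior peaks and 24.0% and 26.5% of all peaks. Among CpG-poor peaks it was in 20.9% and 23.8% of internal-start peaks, 21.2% and 22.9% of gene-start peaks and 26.9% and 33.1% of other interior peaks. CAGCTG was in 16.2% and 17.3% of internal-start peaks, 12.1% and 12.3% of gene-start peaks, 19.0% and 24.1% of other interior peaks and 17.0% and 19.8% of all peaks. Among CpG-poor peaks its internal-start shares, 20.5% (18.7% to 22.5%) and 23.8% (21.3% to 26.5%), were close to the 19.0% and 24.3% of other interior peaks. The TCF/LEF word CTTTGAT was in 2.07% and 1.96%, against 1.46% and 1.15% of gene-start peaks, 3.45% and 4.07% of other interior peaks and 3.08% and 3.19% of all peaks. Among CpG-poor peaks it was in 3.02% (2.31% to 3.94%) and 3.19% (2.28% to 4.45%) of internal-start peaks, beside 3.53% and 4.20% of other interior peaks. Of the 13 words searched, the others were the CTCF word CCACNAGG, the YY1 word AAGATGGCG, the core promoter word TATAAA, the GATA-family motif with letters AGATAAG and the AP-1 word TGACTCA. The CTCF and RUNX words can overlap, as at Cd28. A CTCF word was in 5.70% and 5.34% of internal-start peaks, 4.50% and 4.46% of gene-start peaks, 8.31% and 7.79% of other interior peaks and 7.69% and 7.0% of all peaks.

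**Figure D4:**
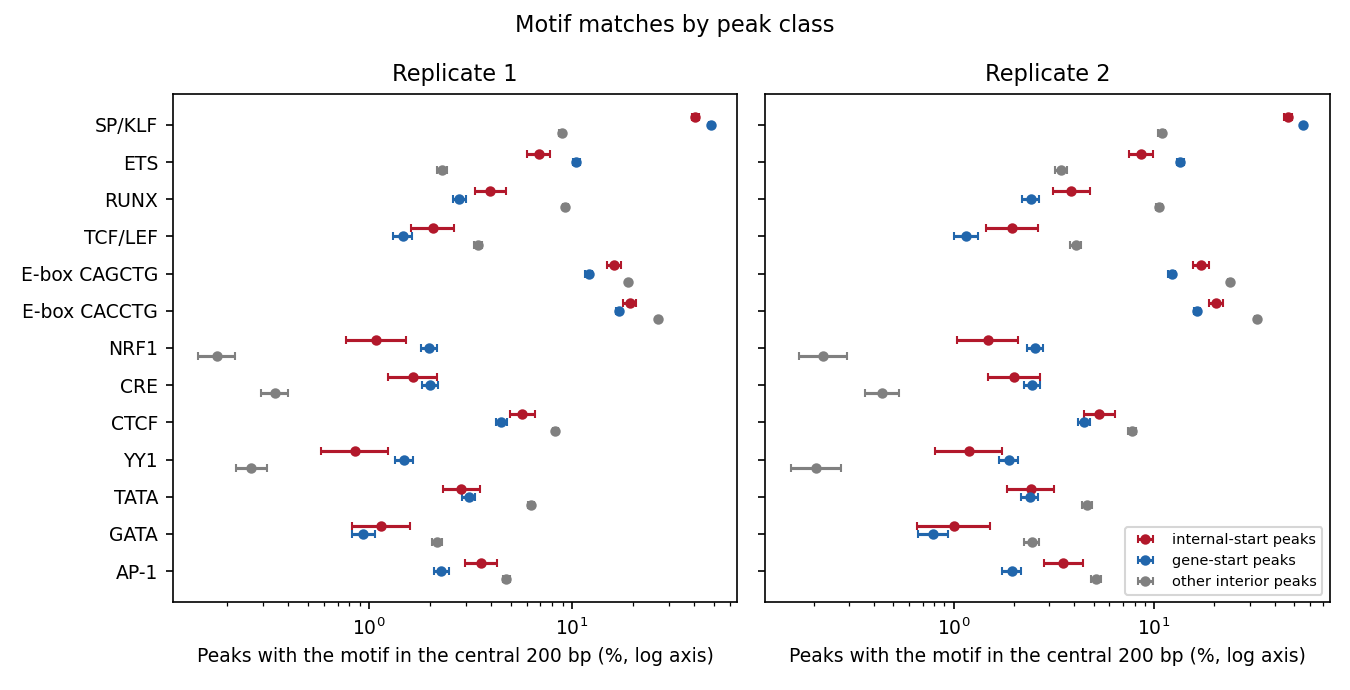
Share of peaks with each of the 13 words in the central 200 bp (x axis, percent, log scale) by class, 1 panel per library, with 95% Wilson intervals. For SP/KLF, ETS and NRF1 the internal-start points lie below the gene-start points and above the other interior points. For RUNX, TCF/LEF and both E-box words they lie above the gene-start points and below the other interior points.

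The same division appeared in the 150 bases upstream of complete internal starts, sorted by whether the start was open. Where both libraries had a peak (2669 starts), GGGCGG occurred upstream of 48.5% and TATAAA upstream of 2.81%, with a median GC content of 62.7%. Where neither had one (5918 starts), GGGCGG occurred upstream of 7.62% and TATAAA upstream of 11.1%, with a median GC content of 46.7%. Over all 9344 complete internal starts the shares were 20.9% for GGGCGG and 8.25% for TATAAA, and over 20807 gene starts 35.6% and 7.28%.

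Genes with an open internal start had an open gene start about as often as all genes did. Of genes with an internal-start peak, 65.5% in replicate 1 and 58.2% in replicate 2 also had a gene-start peak, a mean of 61.9% ± 5.14 (SD, n = 2). The background over all autosomal protein-coding genes was 62.6% and 55.9%. With only the starts of best transcript support the shares were 61.4% and 53.7%, below that background, so the direction of this small difference turned with the annotation used. Read the other way, 28.8% and 22.3% of genes with an open gene start had an internal-start peak, and 24.8% and 20.1% of genes without one. Internal-start peaks were found in 1795 genes in replicate 1 and 1402 in replicate 2, 1369 of them in both. Of these 1369 genes, 791 had a gene-start peak in both libraries, 112 in 1 library and 466 in neither. Where the gene start had no peak, internal-start peaks were CpG-rich in 54.3% and 60.7% of cases, and 516 of 1041 and 439 of 878 began a transcript that GENCODE marks as principal. Where the gene start had a peak, 37.9% and 43.5% were CpG-rich, and 693 of 2009 and 459 of 1219 began a principal transcript. Where both were open, the internal peak was denser than the densest gene-start peak in 453 of 1176 genes in replicate 1 (38.5%, 35.8% to 41.3%) and in 343 of 817 genes in replicate 2 (42.0%, 38.6% to 45.4%).

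Lck, the kinase that phosphorylates the T cell receptor complex, had 2 internal peaks in each library. That at the proximal start, 15.2 kb inside the gene, had a density of 15.5 and 17.2, and that centred 380 and 390 bp upstream of it 8.91 and 7.53. The distal promoter at the gene start had 11.2 and 12.4, so both Lck promoters were open.

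Among other factors of the T lineage the order varied. Ets1, a transcription factor required for normal thymocyte development, had an internal-start peak of 31.87 and 16.18, with 0.862 at the gene start in replicate 1 and no peak there in replicate 2. Notch1, the receptor that commits progenitors to the T lineage, had 11.5 and 6.19 at the internal start, with 0.825 at the gene start in replicate 1 and no peak there in replicate 2. Gata3, needed at several steps of T cell development, had 9.08 and 6.05 at the internal start and 3.04 and 1.24 at the gene start. At Cd28, a costimulatory receptor, the internal start had 8.13 and 7.06 and the gene start had no peak in either library. In each of these 4 genes the internal start begins a transcript marked as principal, and the annotated gene start belongs to another transcript. Runx1 ran the other way, with 5.05 and 3.38 at its densest internal-start peak, centred 497 and 487 bp downstream of the proximal start, against 9.69 and 8.64 at the gene start, the distal promoter. Runx3, which represses Cd4 in CD8 cells, had 2.68 and 1.52 at the internal start against 4.97 and 3.31 at the gene start. Satb1, a chromatin organiser of thymocytes, had 6.83 and 4.68 against 18.6 and 17.9, and Zap70, the kinase recruited to the receptor, had 4.76 and 5.03 against 7.09 and 7.38.

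Open internal starts were also counted over lists of genes. Of 19 T-lineage transcription factor genes with an internal start, 15 in replicate 1 and 14 in replicate 2 had an internal-start peak, beside a background of 27.3% and 21.3% of all genes with an internal start. Of their 52 internal starts 40 and 31 were open, beside the 28.8% and 22.8% over all starts. The 13 genes with one in both libraries included Arid5b, Elf1, Ets1, Foxp1, Gata3, Lef1, Nfatc2, Notch1, Runx1, Runx3, Satb1 and Zbtb7b. Of T-lineage surface and signalling genes 4 of 8 had one in both (Cd28, Cd3d, Lck and Zap70), of selection, survival and recombination genes 3 of 5 (Egr2, Nr4a1 and Xrcc6) and of broadly used genes 2 of 4 (Eef1a1 and Ywhaz). Counted by start, 5 and 5 of 12 were open in the surface and signalling list, 10 and 9 of 13 in the selection, survival and recombination list and 8 and 8 of 12 in the broadly used list. Neuronal genes had one in 6 and 4 of 15 genes, with 17 and 13 of 117 starts open. Muscle genes had one in 5 and 3 of 10, with 20 and 17 of 57 starts open. These muscle shares, 35.1% and 29.8%, were above the 28.8% and 22.8% over all starts. Liver genes had 0 and 0 of 4, B cell genes 1 and 0 of 4, myeloid and dendritic genes 1 and 1 of 6, and thymic epithelial and stromal genes 1 and 2 of 8. In that order, the open starts of these lists were 0 and 0 of 7, 1 and 0 of 7, 1 and 1 of 10, and 2 and 3 of 17. These lists are short and were chosen with earlier results of these data known. Their shares are counts, not tests.

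A list of 58 genes known for alternative promoters in some tissue had 42 with an internal start, and 28 of these in replicate 1, 25 in replicate 2 and 24 in both had an internal-start peak. In 16 of the 24 the internal peak was denser than the gene-start peak in both libraries, and 7 of these had no gene-start peak in either library (Cd28, Dnmt1, Lmo2, Mef2c, Ppargc1a, Rora and Runx2). Dnmt1, the maintenance DNA methyltransferase, is known to use an upstream first exon in oocytes. It had 26.2 and 16.4 at its internal start and no peak at the gene start. Rora, which encodes the receptor RORα, had 9.59 and 7.36 at the start of a short form 636 kb inside the gene. These internal starts of Dnmt1 and Rora begin transcripts marked as principal. The gene start was denser in both libraries in 5 genes, Runx1, Runx3, Satb1, Stat5b and Zap70, and the order differed between libraries in 3, Arid5b, Dnmt3a and Lef1. No internal-start peak was found in either library in 13 genes. These included Bdnf, Hnf4a, Tal1, Csf1r, Trp63 and Trp73, whose gene starts also had no peak, and Bach2, Esr1, Ikzf2, Notch3, Pparg and Prkcq, whose gene starts had one in both libraries. Mitf had 0.282 in replicate 2 only, with 11.9 and 7.62 at the gene start. Pax5, the B cell factor, had an internal-start peak in replicate 1 only, at 6.78, centred 495 bp upstream of the nearest internal start. A replicate 2 peak overlapped that Pax5 site but did not count as an internal-start peak of the gene. Tcf3, Tcf12 and Cdkn2a also had internal-start peaks in replicate 1 only, at 1.61, 0.418 and 0.354, and no replicate 2 peak overlapped those. The gene starts of Prdm1 and Nfatc2 had a peak in replicate 1 only, at 0.423 and 0.450. Their densest internal-start peaks had 5.31 and 3.96 for Prdm1 and 5.15 and 3.24 for Nfatc2. The Nfatc2 values belong to different peaks, centred 4 bp downstream of a start in replicate 1 and 500 bp downstream of another in replicate 2. Both sites had a peak in each library, with 5.15 and 2.70 at the first and 3.61 and 3.24 at the second.

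**Figure D5:**
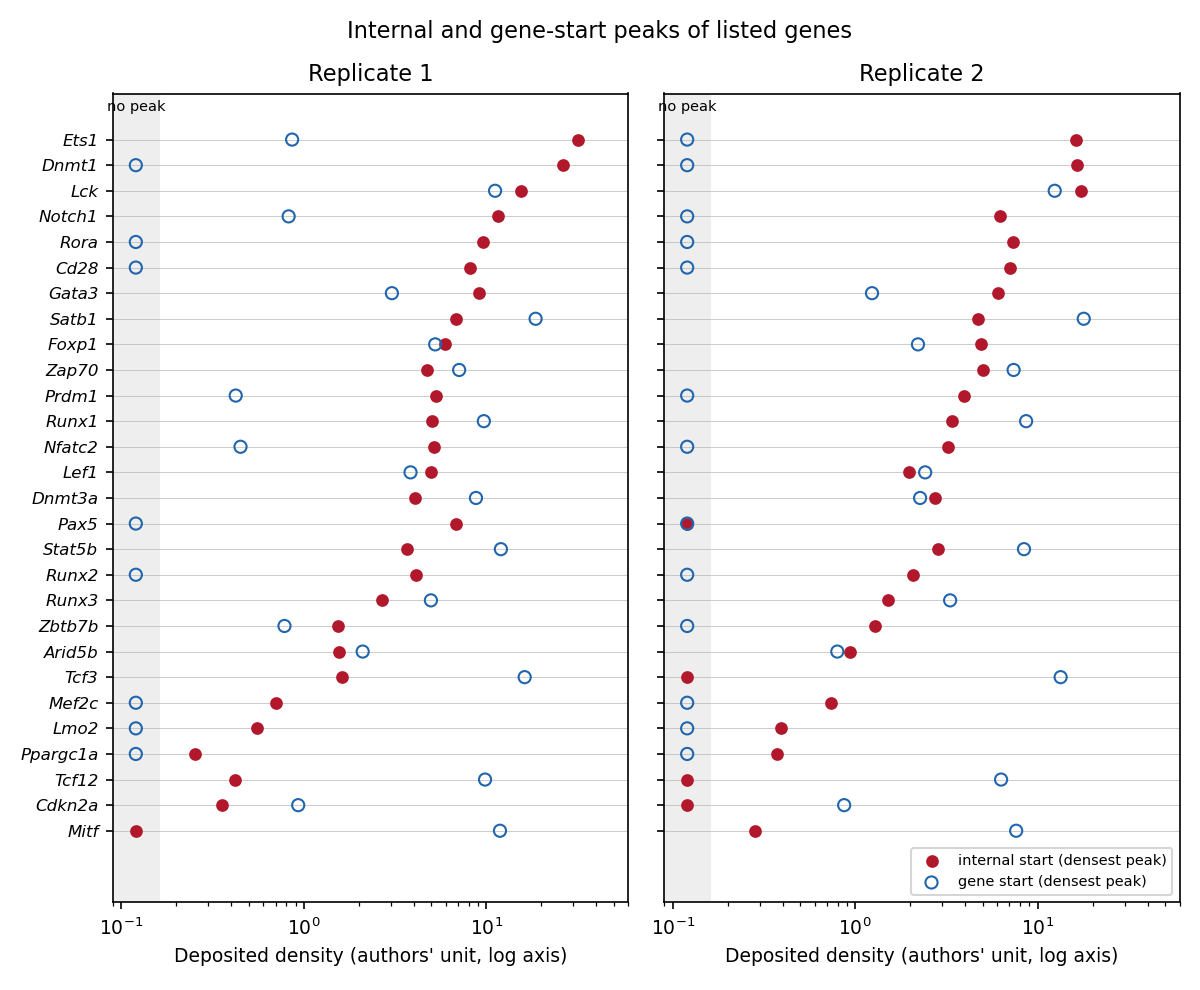
Density of the densest internal-start peak (filled) and of the densest gene-start peak (open) of 28 listed genes with an internal-start peak in either library (x axis, log scale, 1 panel per library), ordered by mean internal density; the grey band holds genes with no peak of that kind. Ets1 and Dnmt1 lie at the top with their gene-start points far to the left or absent, and Satb1, Stat5b, Runx1 and Runx3 have gene-start points to the right.

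The densest members shared by both libraries, by mean density rank, included those in Ppp2r5a, Kat6b, Sin3a, Tbc1d14, Chd2, Bicdl1, Add3, Ndel1 and Ccnt1. Ppp2r5a, a regulatory subunit of protein phosphatase 2A, had 42.3 and 40.3 at its internal start, 6.23 kb inside the gene, against 1.89 and 1.72 at the gene start. Kat6b, a histone acetyltransferase, had 39.0 and 39.9 and no gene-start peak in either library. Sin3a, the scaffold of a histone deacetylase complex, had 39.2 and 36.9 against 4.39 and 2.05. Ndel1, a regulator of the motor protein dynein, had 51.2 and 29.1 against 0.434 and 0.522. Ccnt1, the cyclin of the elongation factor P-TEFb, had 40.9 and 30.2, against 0.434 at the gene start in replicate 1 and no peak there in replicate 2. The members of 8 of these 9 genes lay in CpG-rich sequence in both libraries, and that of Bicdl1 did not. In Ppp2r5a, Sin3a, Ndel1 and Ccnt1 the start nearest to the densest peak begins a transcript marked as principal. In Kat6b, Tbc1d14, Chd2, Bicdl1 and Add3 it does not. Of genes with no gene-start peak in either library, the densest were Kat6b, Tbc1d14 (51.4 and 29.8), Hdac4 (47.3 and 27.8), Ssc4d (32.1 and 36.0) and Tollip (50.4 and 23.3). Hdac4 encodes a class IIa histone deacetylase and Tollip an adaptor of Toll-like receptor signalling. The starts nearest to these Hdac4 and Tollip peaks begin transcripts marked as principal, and that of Ssc4d does not.

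Several members could lie in 1 gene. The deposited lists hold some peaks nested inside others, as at Pde4d in replicate 1, and each was counted. The numbers here are therefore of peaks, not of distinct sites. A single internal-start peak was found in 1014 genes in replicate 1 and 931 in replicate 2, and 2 in 499 and 332. The most were in Pde4d, a cAMP phosphodiesterase known for many promoters, with 11 in each library and no gene-start peak in either. Its densest had 15.4 and 13.1. The other overlapping pairs lay between 0.344 and 9.84 in replicate 1 and between 0.252 and 6.18 in replicate 2. Nr3c1, the glucocorticoid receptor, whose alternative first exons are clustered, had 9 in each library, with the densest at 19.5 and 10.7. Rreb1, a zinc finger transcription factor, had 8 and 7, with the densest at 17.97 and 8.24.

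Some genes had as their own densest member a peak with no partner in the other library. Of these genes, the 5 with the highest density had it in replicate 1: Ptprs (26.9), Def8 (14.3), Lef1 (4.97), C2cd2 (4.35) and Prss32 (3.54). In Ptprs, a receptor tyrosine phosphatase, replicate 2 had peaks on both sides of that site, with densities of 12.9 and 5.07, both within 500 bp of the same start, and in Def8 it had a peak of 5.99 close by. Lef1, a partner of β-catenin in early T cell development, had 3 internal-start peaks in replicate 1, the densest of them unshared, and 1 in replicate 2 at 1.97.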

How the data were processed

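DNase-seq files of 2 thymus libraries were used, 1 per animal. Per the deposited notes, peaks, footprints and cutting rates were made per library from its own filtered alignment on mm10, and nothing was pooled. No source used here names the aligner or the callers. The deposited peak value is the authors' signal density of unstated scaling, with steps of 0.0053 (replicate 1) and 0.0060 (replicate 2). Each library has 2 deposited peak lists, of which the longer was used. The deposited cutting file gives a q-value (false discovery rate) for each run of bases and lists only those below 0.05. The deposited footprints carry the number 0.01 in every line, a value of other and unstated meaning, so only their positions were used.

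Peaks were classed by midpoint against GENCODE M21 protein-coding transcripts with Python 3.11.15, numpy 2.4.6, scipy 1.17.1 and pandas 2.3.3, and drawn with matplotlib 3.10.9. The 1 kb limit was applied to the peak midpoint. Where several starts were in reach, the nearest was taken. An overlap of at least 1 bp made a pair between libraries. Depth is not stated, so 95% Wilson intervals over peaks, starts or genes cover counting error only. Tested on simulated data, the classes differed from those of a brute-force search and of bedtools 2.31.1 at 0 of 2200 peaks. The members and gene lists were chosen with earlier results of these data known. The named genes are the 10 with the densest shared members, every gene of the list of known alternative promoters with an internal start, the 5 densest with no gene-start peak, the 3 with the most members and the 5 ranked highest by density among genes whose own densest member had no partner in the other library. Some genes that these rules name are left out of the text and figures. Sex chromosomes were left out, except as given in the closing section. Alternatives tried were the shorter list, the denser 50% of peaks, limits of 250 and 1000 bp, over 5 kb inside, best transcript support only, a stricter CpG rule, a 50% overlap, a 1 kb limit on the start itself and each library alone.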

Additional observations from a re-analysis of the deposited data

Results flagged for a closer look

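The rule kept to autosomes, but the same sites on the X chromosome also had peaks. Replicate 1 had 92 internal-start peaks there among 3284 X-linked peaks, and replicate 2 had 82 among 1817. Of 392 X-linked internal starts 28.6% and 28.1% were open, beside 28.8% and 22.8% on the autosomes, and their peaks had median densities of 2.13 and 1.33.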

How the results depend on the processing

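Both ratios stayed above 1 under the alternatives run, and 33 of the 51 recomputed values moved by less than the spread between the libraries or, for the count of peaks, by less than 1.5 times. Set beside all genes, the share of genes with a gene-start peak turned below the background with the best transcript support only, at 61.4% and 53.7% against 62.6% and 55.9%. It stayed above it with the denser 50% of peaks, at 58.3% and 49.6% against 54.1% and 48.6%, and with the shorter list, at 62.0% and 53.3% against 58.5% and 52.0%. No paired analysis was possible because there is 1 group and no contrast between samples. Means over both libraries follow. With the denser 50% of peaks, 1702 peaks remained internal-start peaks, 19.3% of starts were open, the ratio of peaks per Mb was 10.7, the density ratio 1.95, the share with a gene-start peak 53.9% and the CpG-rich share 55.7%. With the best transcript support only, the values were 1678 peaks, 38.0% of starts, ratios of 12.2 for peaks per Mb and 2.88 for density, and 56.0% CpG-rich. Within 250 bp the ratio of peaks per Mb was 9.68 and the density ratio 2.80. Within 1000 bp the density ratio was 1.71 and the CpG-rich share 39.8%. The density ratio was 2.02 with the shorter list and 2.04 for starts over 5 kb inside. With the stricter CpG rule 41.0% were CpG-rich. The cause of these shifts was not tested. With 1 library left out, the ranges were 2097 to 3050 peaks, 22.8% to 28.8% of starts, 5.69 to 8.52 for peaks per Mb, 2.08 to 2.17 for density, 65.2% to 93.8% with a partner, 58.2% to 65.5% with a gene-start peak and 43.5% to 50.7% CpG-rich. With n = 2 an SD is imprecise, and an internal start without a peak was not detected at this depth rather than shown to be closed.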
